A study of Homo sapiens with 6 samples.

Results

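The genes studied here are the receptors of the EGFR (epidermal growth factor receptor) family, their ligands and their negative regulators in HCT116SCs. They were taken by name from the deposited expression table: the receptors EGFR, ERBB2 and ERBB3, the ligands AREG, EREG, TGFA, HBEGF and BTC, and the inhibitors ERRFI1 and LRIG1, which are 10 of its 58735 genes. HCT116SCs are CD44+CD326+ cells sorted from HCT116, an established colorectal cancer line, and grown as spheres in serum-free medium. All 6 libraries came from such cells, kept in medium with 20 ng/mL EGF and 20 ng/mL bFGF (basic fibroblast growth factor) and harvested 48 h after transfection with liposomes. The control group received negative control (NC) siRNA and carries the genotype label WT (n = 3 libraries), and the other received PSCA siRNA (siPSCA) and carries the label PSCA knockdown (n = 3 libraries). PSCA is the prostate stem cell antigen, and the labels list 3 PSCA siRNAs without naming the one used. The comparison asks which of these transcripts differed between siPSCA and NC.

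The ERBB receptors are tyrosine kinases of the cell surface that act in pairs. EGFR binds EGF-like ligands, ERBB2 has no known ligand and is the preferred partner of the others, and ERBB3 binds neuregulins but has little kinase activity of its own. The ligands are made as membrane proteins and set free by ADAM proteases, and the activated receptors signal through RAS and ERK and through PI3 kinase, which sustain the growth of the intestinal epithelium and of many colorectal cancers. ERRFI1 (also called MIG6) and LRIG1 restrain the receptors, the first by binding the kinase domain and the second by promoting receptor loss.

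The table gives FPKM, a level scaled by gene length and library size, so that different genes can be compared. The libraries held between 16099716 and 17302219 reads on genes, recovered from these values. PSCA itself had 4, 12 and 15 reads in NC 1, NC 2 and NC 3 and 9, 9 and 7 in siPSCA 1, siPSCA 2 and siPSCA 3. Its mean FPKM was 0.34 in NC and 0.27 in siPSCA, and no difference was detectable at this depth. The difference in log2(FPKM + 1), a scale that understates the change of low genes, was -0.07. Its standard error was 0.12 (limma adjusted p = 0.728 without a minimum level). The knockdown therefore could not be checked in these libraries and the groups follow the labels. By Western blot, the authors reported lower PSCA protein in HCT116SCs with every PSCA siRNA they tried. The titles of siPSCA 2 and siPSCA 3 name another number after HCT, whereas their other labels name HCT116. The sort markers CD44 and EPCAM, which encodes CD326, lay at an FPKM of 79.2 to 87.5 and 94.7 to 123 in NC and of 59.6 to 62.4 and 93.3 to 97.3 in siPSCA. Of 12 markers of blood, endothelial and connective tissue cells, 1 (COL1A1) reached a mean FPKM of 1, and CD3E and LUM had no read. Their summed FPKM was 4.67 to 7.18 in NC and 7.46 to 7.94 in siPSCA, and without COL1A1 it was 1.33 to 1.56 and 1.28 to 1.91; their part in the results was not tested. NC 3 stood apart from NC 1 and NC 2, at distances of 48.1 and 45.8 on the log2 scale against 31.5 between that pair, and its difference from them went with GC content (Spearman rho over genes -0.56). No source states whether the libraries were separate cultures, so the p-values measure the spread between libraries, which may be technical.

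Among the ligands, AREG, EREG and BTC lie close together on chromosome 4, where EPGN, a further EGF-like ligand, precedes them. In GRCh38 coordinates EREG runs from 74365143 to 74388751 and AREG from 74445134 to 74455009, both on the plus strand and separated by 56.4 kb, and BTC runs from 74744759 to 74794686 on the minus strand, 290 kb beyond AREG. No protein-coding gene lies in the gap between EREG and AREG or in the one between AREG and BTC. The promoters of these neighbours are shown because AREG and EREG were both lower with siPSCA and the third did not pass the test. The call of EREG was lost once a trend of fold changes with GC content and gene length was removed. EREG then lay at -0.02 on the log2 scale, and AREG, still called, at -0.41. Each window holds 300 bases from RefSeq (GRCh38.p14), 250 before the listed start site and 50 from it on. It lies at chr4:74444886-74445185 for AREG and chr4:74364895-74365194 for EREG, both on the plus strand, and at chr4:74794474-74794773 for BTC, on the minus strand. Capitals mark the TATA box (TATAAA) and the cyclic AMP response element (TGACGTCA).
AREG: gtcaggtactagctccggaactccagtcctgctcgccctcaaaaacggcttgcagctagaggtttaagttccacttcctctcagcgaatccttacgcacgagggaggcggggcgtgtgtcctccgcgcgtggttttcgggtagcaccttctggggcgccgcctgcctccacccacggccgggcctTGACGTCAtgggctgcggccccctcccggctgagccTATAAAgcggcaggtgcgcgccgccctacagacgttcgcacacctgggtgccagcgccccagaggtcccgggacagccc
EREG: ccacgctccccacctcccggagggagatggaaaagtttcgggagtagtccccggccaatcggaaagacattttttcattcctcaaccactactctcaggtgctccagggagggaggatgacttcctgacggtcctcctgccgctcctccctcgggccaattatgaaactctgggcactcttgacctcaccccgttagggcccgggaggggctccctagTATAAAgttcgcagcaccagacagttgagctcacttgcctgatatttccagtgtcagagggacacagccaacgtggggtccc
BTC: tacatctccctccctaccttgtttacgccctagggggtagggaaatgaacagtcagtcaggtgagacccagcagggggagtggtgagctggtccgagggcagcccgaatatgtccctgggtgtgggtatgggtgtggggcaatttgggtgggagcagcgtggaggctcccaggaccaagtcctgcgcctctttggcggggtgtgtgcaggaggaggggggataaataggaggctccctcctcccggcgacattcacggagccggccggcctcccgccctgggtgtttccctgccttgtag
The TATA box began 29 bases before the start of AREG and 32 bases before that of EREG. Of the 9 genes with a window (all but ERBB3), these 2 held TATAAA on either strand, as did 11.5% of the 35116 promoters listed. TGACGTCA was found in AREG alone of the 9, beginning 65 bases before its start, and in 1.85% of all promoters. The GC box GGGCGG, found in 45.0% of all promoters, was present in 7 of the 9 and absent from EREG and ERBB2. CCAAT was present in EREG, ERBB2, ERRFI1 and LRIG1 (34.6% of all promoters), and the AP-1 site TGANTCA was found in ERBB2 only (7.71% of all promoters). The motifs were sought on both strands and do not overlap one another in AREG or EREG. Where several starts were listed, as for EGFR, TGFA and LRIG1, the one nearest the annotated start of the gene was taken. The start used lay 180 bases from the annotated one in ERBB2 and 367 bases in TGFA, so other promoters of these genes were not searched. A match is a description of the letters, not of binding.

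Transcripts of EGFR, of the ligands AREG, EREG and HBEGF and of the inhibitor ERRFI1 were lower with siPSCA, and those of ERBB2 were higher. TGFA, BTC and ERBB3 did not pass the test, and LRIG1 lay below the minimum level for it. The test was the linear model of limma on log2(FPKM + 1), run over the 13796 genes whose mean FPKM reached 1 and adjusted over all of them by the method of Benjamini and Hochberg. Of these 13796 genes, 50.7% had an adjusted p under 0.05, 24.2% lower and 26.6% higher. Of the 9 family genes tested, 6 were called, 5 lower and 1 higher. By a further rule, an unadjusted p under 0.05 and a log2 difference past 0.5 in size, 4 of the 9 were called (3 lower, 1 higher), against 24.9% of all genes (10.2% lower, 14.7% higher). The groups did not overlap for the same 6 genes (5 lower, 1 higher), against 64.5% of all genes (30.8% lower, 33.7% higher), so the count of 6 without overlap is near its background. The median log2 fold change was -0.38 over the 9 genes and 0.01 over all genes tested. Once a trend of the fold changes with GC content and gene length was removed, these medians were -0.02 and 0.00. The median of the 9 genes was the value of EREG in both fits, so its move is that of EREG alone. With the trend removed, ERRFI1, HBEGF, EGFR and AREG stayed lower, at -0.83, -0.70, -0.57 and -0.41. In bulk RNA, fewer cells that make a transcript and less of it per cell cannot be told apart.

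**Figure D1:**
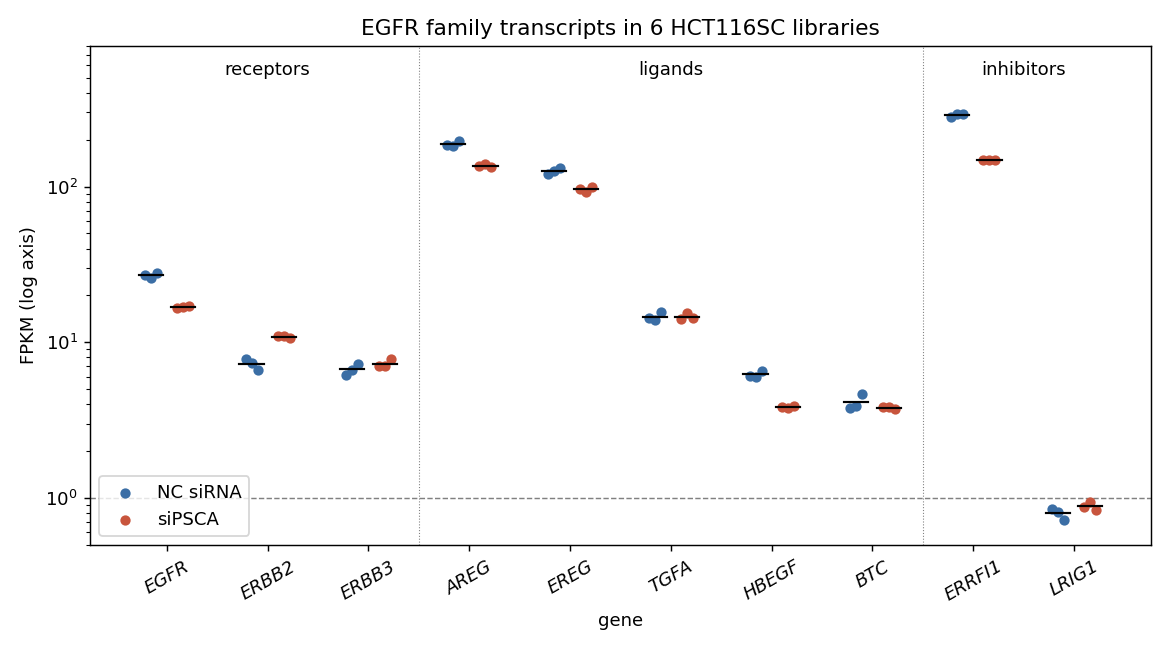
FPKM (log axis) of each gene in the 3 NC and 3 siPSCA libraries, with 1 point per library and a bar at the group mean. The dashed line marks an FPKM of 1. The groups are apart for EGFR, ERBB2, AREG, EREG, HBEGF and ERRFI1.

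Of the receptors, EGFR was the most abundant in every library. EGFR (ENSG00000146648, chromosome 7, 55019021 to 55211628, plus strand) had an FPKM of 27.1, 25.9 and 27.8 in NC 1 to NC 3 and of 16.5, 16.9 and 17.1 in siPSCA 1 to siPSCA 3. Every siPSCA library lay below every NC library. Its mean fell by 37.5%, from 26.9 ± 0.975 to 16.8 ± 0.328 (SD, n = 3 each). On the log2 scale the difference was -0.65 with a standard error of 0.05 (limma, adjusted p = 0.000613). The reads behind it numbered 5650 to 6007 in NC and 3494 to 3910 in siPSCA. The antisense gene EGFR-AS1, with 5 to 30 reads per library, covers 1.49% of its exonic bases.

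ERBB2 moved the other way. ERBB2 (ENSG00000141736, chromosome 17, 39687914 to 39730426, plus strand) had an FPKM of 7.75, 7.33 and 6.60 in the NC libraries and of 11.0, 11.0 and 10.7 in the siPSCA libraries. The siPSCA values lay close together above all NC values, of which NC 3 was the lowest. The mean rose by 50.4%, from 7.23 ± 0.584 to 10.9 ± 0.162 (SD, n = 3 each). On the log2 scale the difference was 0.53 with a standard error of 0.07 (limma, adjusted p = 0.00193). It was 0.24 and still past the threshold once the GC and length trend was removed. On the opposite strand the exons of MIEN1 and PGAP3 cover 5.53% and 1.88% of the exonic bases of ERBB2, and no source states whether reads were counted by strand. MIEN1 had 254 to 276 reads in NC and 310 to 328 in siPSCA, and PGAP3 had 102 to 189 and 249 to 287, beside 1173 to 1344 and 1914 to 2010 reads for ERBB2.

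ERBB3 (ENSG00000065361, chromosome 12, 56076799 to 56103505, plus strand) had an FPKM of 6.19, 6.66 and 7.20 with NC siRNA and of 7.01, 7.07 and 7.78 with siPSCA. The groups overlapped through NC 3. The log2 fold change was 0.11, with a 95% confidence interval of -0.06 to 0.28 (adjusted p = 0.239 from limma), so a rise of up to 0.28 on this scale is within its limits. ERBB4, the remaining receptor of the family, had 0 reads in each NC library and 2, 1 and 5 reads in the siPSCA libraries. A count of 0, seen in NC only, allows up to 3 reads. Over the depths of all 6 libraries, 3 reads on ERBB4 come to an FPKM of 0.0127 to 0.0137.

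The balance among the receptors was different in the 2 groups. EGFR had 3.49, 3.53 and 4.22 times the FPKM of ERBB2 in the NC libraries and 1.5, 1.54 and 1.61 times in the siPSCA libraries. Of the summed FPKM of EGFR, ERBB2 and ERBB3, EGFR made up 65.9% ± 0.975 in NC and 48.1% ± 0.274 in siPSCA, and ERBB2 made up 17.7% ± 1.63 and 31.1% ± 0.943 (SD, n = 3 each). The sum itself was 39.9 to 41.6 in NC and 34.5 to 35.6 in siPSCA. The order EGFR, ERBB2, ERBB3 by mean held in both groups, with ERBB2 and ERBB3 overlapping in NC and apart in siPSCA. These shares and ratios are descriptions and were not tested. They come from the FPKM values with the GC and length trend in them. Once that trend was removed, the log2 fold change of ERBB2 went from 0.53 to 0.24 and that of EGFR from -0.65 to -0.57.

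**Figure D2:**
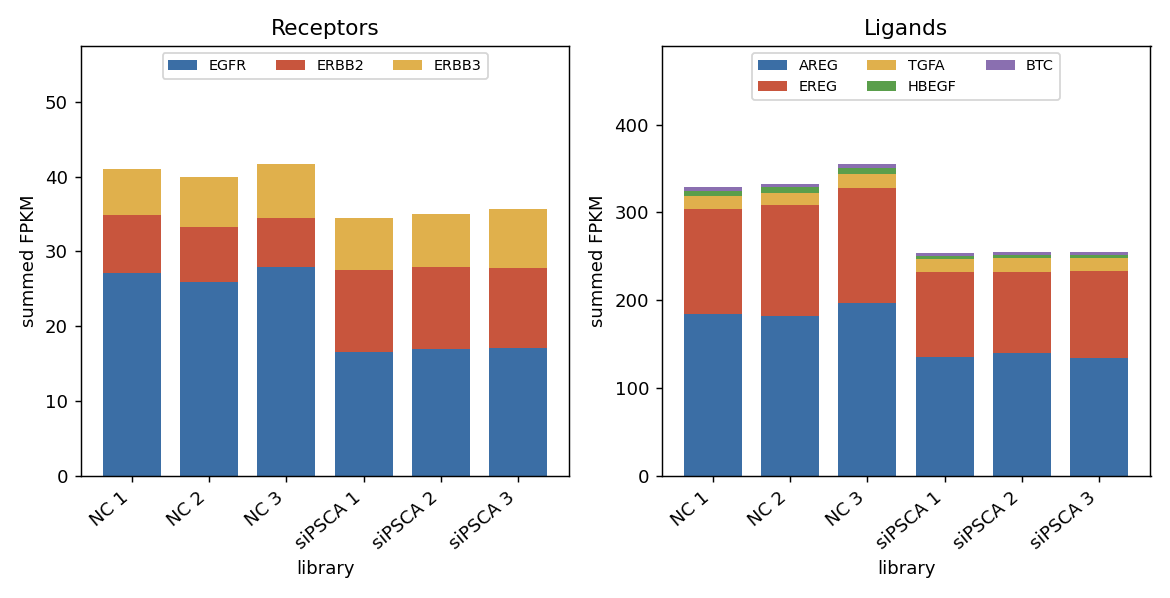
Summed FPKM of the receptors (left) and of the ligands (right) in each library, as stacked bars that start at 0, with 1 colour per gene. EGFR makes up less and ERBB2 more of the receptor bar in the 3 siPSCA libraries, while AREG and EREG make up most of every ligand bar.

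AREG and EREG, which encode amphiregulin and epiregulin, were by far the most abundant ligand transcripts, and both were lower with siPSCA. In colorectal cancer their expression is known for its relation to the response to EGFR antibodies. AREG (ENSG00000109321) had an FPKM of 184, 182 and 197 in the NC libraries and of 136, 139.7 and 134 in the siPSCA libraries. No siPSCA value reached the lowest NC value. The mean fell by 27.4%, from 188 ± 8.15 to 136 ± 3.09 (SD, n = 3 each). On the log2 scale the difference was -0.46 with a standard error of 0.05 (limma, adjusted p = 0.00145). AREG ranked 120 by mean FPKM among the genes tested in NC and 177 in siPSCA.

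EREG (ENSG00000124882) had an FPKM of 120.5, 126 and 131 in NC and of 96.6, 92.4 and 99.8 in siPSCA. The groups did not overlap. The mean fell by 23.5%, from 126 ± 5.17 to 96.3 ± 3.67 (SD, n = 3 each). On the log2 scale the difference was -0.38 with a standard error of 0.05 (limma, adjusted p = 0.00269). This call was lost once the GC and length trend was removed, at -0.02 on the log2 scale (limma, adjusted p = 0.683), whereas AREG stayed at -0.41 (limma, adjusted p = 0.00108). AREG exceeded EREG 1.45 to 1.52 times in NC and 1.34 to 1.51 times in siPSCA, and these ranges overlapped.

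HBEGF, which encodes heparin-binding EGF-like growth factor, was the ligand with the largest proportional fall. HBEGF (ENSG00000113070, chromosome 5, 140332843 to 140346631, minus strand) had an FPKM of 6.11, 5.99 and 6.56 in NC and of 3.86, 3.80 and 3.87 in siPSCA. The siPSCA values were nearly equal and all below NC. The mean fell by 38.2%, from 6.22 ± 0.298 to 3.85 ± 0.0370 (SD, n = 3 each). On the log2 scale the difference was -0.58 with a standard error of 0.06 (limma, adjusted p = 0.00109), on 310 to 341 reads in NC and 197 to 213 in siPSCA.

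TGFA, which encodes transforming growth factor alpha, and BTC, which encodes betacellulin, did not pass the test. TGFA (ENSG00000163235, chromosome 2, 70447280 to 70554193, minus strand) had an FPKM of 14.3, 13.9 and 15.6 in NC and of 14.0, 15.5 and 14.2 in siPSCA. The libraries of both groups were intermingled. Its log2 fold change was 0.00 with a 95% confidence interval of -0.16 to 0.16 (adjusted p = 0.992 from limma). BTC (ENSG00000174808) had 3.76, 3.92 and 4.64 in NC and 3.82, 3.84 and 3.74 in siPSCA, where NC 3 alone stood above the rest. Its log2 fold change was -0.09 with a 95% confidence interval of -0.28 to 0.11 (adjusted p = 0.399 from limma), and it was -0.01 without NC 3.

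Summed over the 5 ligands, the FPKM was 328 to 355 in NC and 254 to 255 in siPSCA. AREG made up 55.5% ± 0.545 of it in NC and 53.5% ± 1.19 in siPSCA, and EREG 37.2% ± 0.687 and 37.8% ± 1.45 (SD, n = 3 each). TGFA made up 4.31% ± 0.114 and 5.72% ± 0.299, and HBEGF 1.84% ± 0.0304 and 1.51% ± 0.0165. By level the ligands ran AREG, EREG, TGFA, HBEGF, BTC in both groups. HBEGF lay above BTC in every NC library, and the 2 genes overlapped in siPSCA.

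The other ligands of the family did not reach the minimum level, so their tests come from a fit to all 34391 genes with a read, of which 16.3% were called. EGF had an FPKM of 0.291, 0.169 and 0.265 in NC and of 0.473, 0.624 and 0.573 in siPSCA, on 18 to 30 and 49 to 68 reads. Every siPSCA library lay above every NC library, with means of 0.557 in siPSCA and 0.242 in NC. The difference in log2(FPKM + 1), which understates the change at so low a level, was 0.33 (standard error 0.08). Its adjusted p was 0.0497 from limma, at the edge of the threshold. EPGN, next to EREG on chromosome 4, had 22 to 33 reads in NC and 26 to 33 in siPSCA (adjusted p = 0.925 from limma). Of the neuregulins, NRG2 had 20 to 32 reads in NC and 37 to 62 in siPSCA (adjusted p = 0.204 from limma) and NRG4 23 to 42 and 26 to 36 (adjusted p = 0.710 from limma). NRG1 had at most 3 reads in any library, and NRG3 had 0 in all 6, which allows an FPKM of up to 0.0325 to 0.0352.

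ERRFI1 had the highest level of the 10 genes and the largest change. The protein is a feedback inhibitor, whose gene is induced by signaling through EGFR and ERK. ERRFI1 (ENSG00000116285, chromosome 1, 8004404 to 8026308, minus strand) had an FPKM of 281, 291 and 291 in NC and of 148, 148 and 149 in siPSCA. The libraries of each group lay close together and far from those of the other group. The mean fell by 48.4%, from 288 ± 5.56 to 148 ± 0.368 (SD, n = 3 each). On the log2 scale the difference was -0.95 with a standard error of 0.04 (limma, adjusted p = 0.000125), and 2.15% of the genes tested had a lower log2 fold change. ERRFI1 ranked 71 by mean FPKM in NC and 157 in siPSCA. An antisense gene with 23 to 50 reads per library covers 3.70% of its exonic bases, beside 10487 to 21216 reads for ERRFI1. ERRFI1 was 10.4 to 11.2 times as high as EGFR in NC and 8.68 to 8.98 times in siPSCA.

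LRIG1, a negative regulator of the receptors and a marker of intestinal stem cells, lies on chromosome 3 from 66378797 to 66501263 on the minus strand (ENSG00000144749). Its FPKM was 0.846, 0.817 and 0.726 in NC and 0.874, 0.936 and 0.835 in siPSCA, with overlapping groups, and 88 to 117 reads per library. In the model without a minimum its difference in log2(FPKM + 1) was 0.07 with a 95% confidence interval of -0.17 to 0.31 (adjusted p = 0.687 from limma). Exons of SLC25A26 on the opposite strand cover 12.9% of its exonic bases, and SLC25A26 itself had 219 to 296 reads per library.

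**Figure D3:**
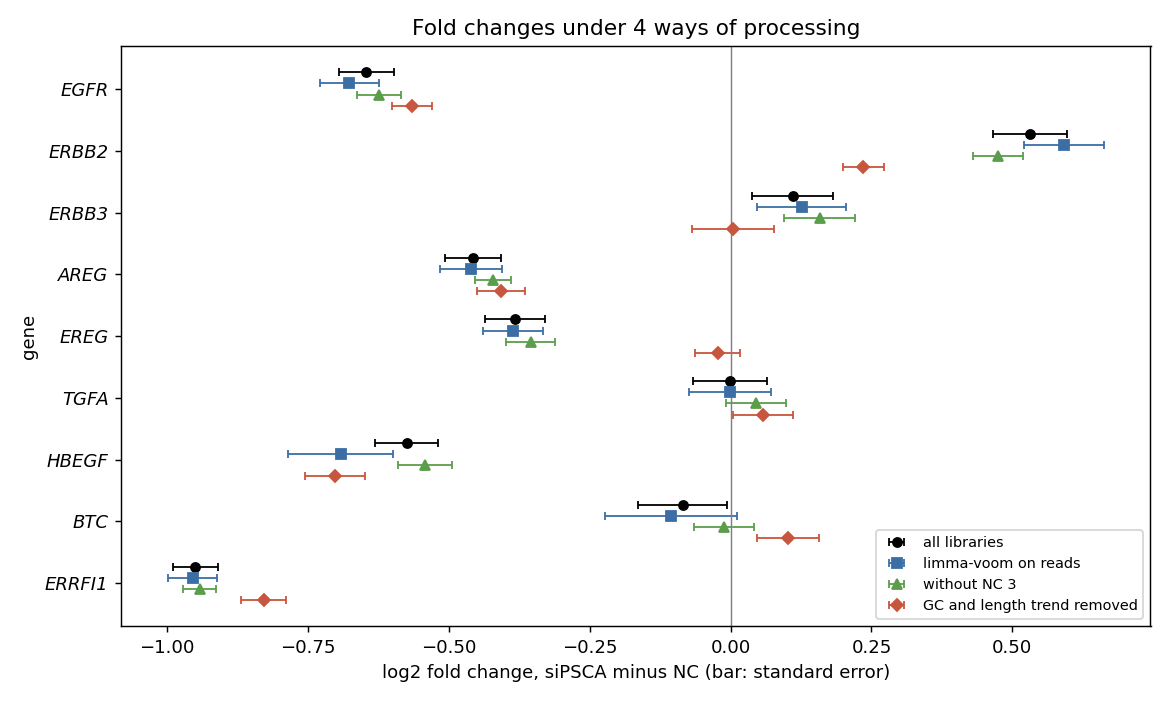
Log2 fold change of siPSCA against NC with its standard error for the 9 genes tested, with all libraries, with limma-voom on the recovered reads, without NC 3, and once the GC and length trend was removed. The 4 values of ERRFI1, EGFR, HBEGF and AREG lie together below 0, whereas EREG moves to -0.02 and ERBB2 to 0.24 when the trend is removed.

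Fold changes in this comparison went with base composition, with a Spearman correlation of 0.66 between log2 fold change and GC content across 13792 genes, which are not independent of one another. The 10 genes cover a wide range of GC content, from 36.1% in EREG to 57.5% in ERBB2. The genes tested within 1 percentage point of the GC content of EREG had a median log2 fold change of -0.36, beside -0.38 for EREG. For ERBB2 that median was 0.35, beside its own 0.53. HBEGF fell among genes whose median was 0.09, EGFR among genes at -0.01, AREG among genes at -0.09 and ERRFI1 among genes at -0.15. TGFA and BTC lay above the medians of their own GC neighbours, -0.08 and -0.27. With the GC and length trend taken out of every library, EGFR was at -0.57, HBEGF at -0.70, AREG at -0.41 and ERRFI1 at -0.83, all past the adjusted threshold, and 5 of the 9 genes were called, 4 lower and 1 higher. In that fit 39.5% of all genes were called, 2715 of 13792 higher and 2737 lower.

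The machinery that releases ligands was mixed. The counts of this and the following lists stand against 50.7% of all genes called, 26.6% higher and 24.2% lower, and against 39.5% called without the GC and length trend. Of 8 genes listed for ligand shedding, 6 were tested, of which 2 rose, 2 fell and 2 did not pass (median log2 fold change 0.06). With the GC and length trend removed, 1 was higher, 1 was lower and 4 did not pass (median -0.05). The lower gene was RHBDF1, at -0.30 (adjusted p = 0.013 from limma). With the trend RHBDF1 did not pass, at 0.27, and its FPKM was higher in every siPSCA library than in any NC library. ADAM17 and ADAM10, the main sheddases of this family, went from 8.46 ± 0.685 to 5.91 ± 0.220 and from 12.1 ± 0.548 to 8.26 ± 0.413 FPKM (SD, n = 3 each), with log2 fold changes of -0.45 and -0.50 (adjusted p = 0.00368 and 0.00177 from limma). Both calls were lost after removal of the GC and length trend (log2 fold changes of -0.08 and -0.08). FRMD8 and RHBDF2, which carry ADAM17 to the cell surface and stabilise it there, rose by 0.98 and 0.57 on the log2 scale (adjusted p = 0.00858 and 0.0254 from limma). NC 3 was the lowest NC library for both, FRMD8 stayed past the threshold without the trend at 0.47, and RHBDF2 did not, at 0.02, nor did RHBDF2 pass without any single siPSCA library.

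Among 19 adaptors and effectors of the receptors, 17 were tested, of which 2 rose, 6 fell and 9 did not pass (median log2 fold change -0.11), a share called near that of all genes. With the trend removed 5 of the 17 were lower and 0 higher. The falls were led by PIK3CA, the catalytic subunit of PI3 kinase, at -0.70, and by the RAS exchange factors SOS1 and SOS2 at -0.65 and -0.50 (adjusted p = 0.00136, 0.00332 and 0.00663 from limma). They remained past the threshold after removal of the trend, at -0.23, -0.27 and -0.23. The other calls in that fit were CRKL, which then had the largest fall of the list, at -0.43, and PTPN11, at -0.27. With the trend CRKL and PTPN11 lay at -0.38 and -0.48. The adaptors NCK2 and GRB2 rose by 0.30 and 0.25 (adjusted p = 0.00761 and 0.0128 from limma). Neither passed once the trend was removed, at -0.08 and 0.08, and GRB2 did not pass without siPSCA 1 or without siPSCA 2.

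All 20 genes listed for degradation and trafficking of the receptors were tested, and 4 rose, 9 fell and 7 did not pass (median log2 fold change -0.20). The scaffold CD2AP, the endocytic adaptor EPS15 and the deubiquitinase USP8 fell by 0.64, 0.55 and 0.49 on the log2 scale (adjusted p = 0.00408, 0.00178 and 0.00382 from limma). The ubiquitin ligase STUB1, the endocytic adaptor EPN1 and the sorting protein HGS rose by 0.65, 0.61 and 0.59 (adjusted p = 0.0134, 0.00882 and 0.00777 from limma). Without the GC and length trend 3 of the 20 rose and 5 fell, and the median was -0.04, near the 0.00 of all genes. Besides EPN1, these rises were VPS4B, at 0.24, and RAB11A, at 0.16. With the trend, VPS4B did not pass and RAB11A was lower, at -0.17. After its removal STUB1, HGS and USP8 lost their calls, at -0.02, 0.03 and -0.11. CD2AP and EPS15 kept theirs at smaller values of -0.28 and -0.22, and EPN1 kept its call at 0.54.

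Of 15 further negative regulators of the pathway, all tested, 11 were lower, 1 was higher and 3 did not pass (median log2 fold change -0.35), where 24.2% of all genes were lower and 26.6% higher. SPRY1, an inhibitor of receptor signaling that is itself induced by it, had an FPKM of 5.99 ± 1.07 in NC and 3.07 ± 0.593 in siPSCA (SD, n = 3 each), or -0.78 on the log2 scale (limma, adjusted p = 0.00803). RASA1 and NF1, which switch RAS off, fell by 0.57 and 0.56 (adjusted p = 0.00157 and 0.00222 from limma). The phosphatase PTPN1 rose by 0.23 (adjusted p = 0.00977 from limma). All 4 remained past the threshold when the trend was removed, SPRY1 at -0.71, RASA1 at -0.43, PTPN1 at 0.16 and NF1 at a smaller value of -0.21. The list then had 7 lower, 1 higher and 7 not past the test, with a median of -0.18, where 39.5% of all genes were called. Over all genes tested the median was 0.01 with the trend and 0.00 without it.

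**Figure D4:**
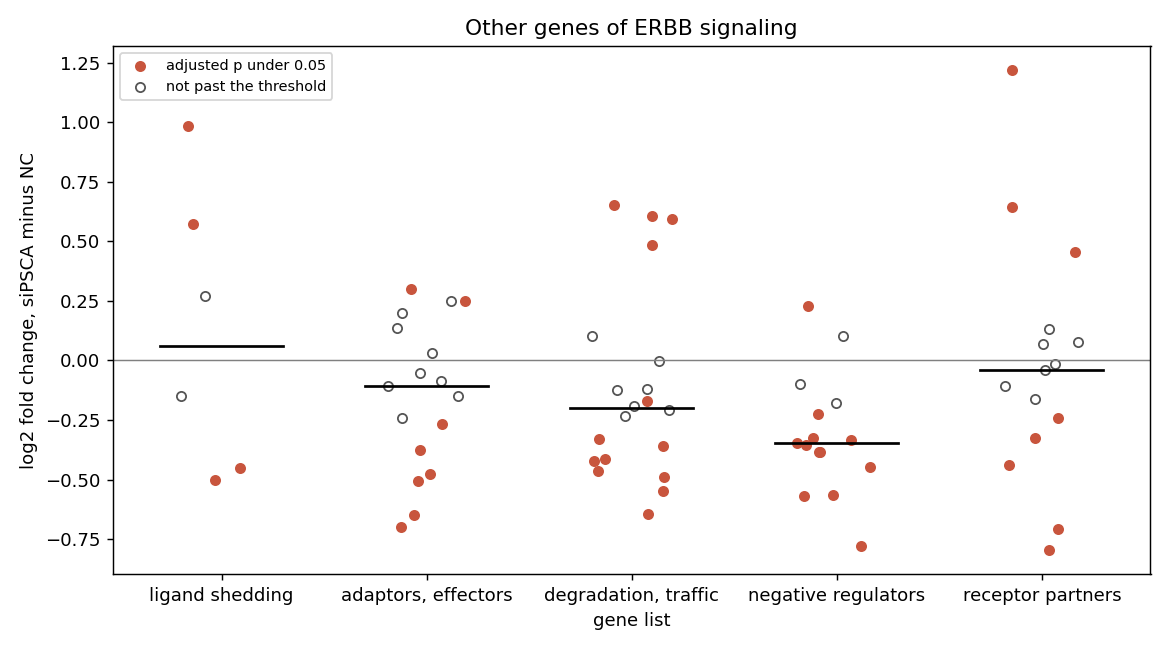
Log2 fold change of siPSCA against NC for the tested genes of 5 lists of ERBB signaling, with 1 point per gene, filled where the adjusted p from limma was under 0.05, and a bar at the list's median. The list of negative regulators has the lowest median, -0.35, and the list of ligand shedding genes is mixed.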

How the data were processed

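The genes, lists and tests were chosen with earlier results of these data known. The authors built libraries with the NEBNext Ultra RNA kit, sequenced them as paired-end reads and deposited 1 table of FPKM values for 58735 genes. Per the labels the build is GRCh38. The aligner, the counting program and the use of strand are not given in the sources used here. Each gene had the position given in GENCODE release 29. Reads were recovered from FPKM times length, since 100% of the values were whole reads (tolerance 0.01). Limits from read numbers cover counting error only. Groups follow the sample labels.

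Fits were made with R 4.3.3 and limma 3.58.1 (lmFit and eBayes, trend on the mean) on log2(FPKM + 1), a scale that understates the change of low genes. All 6 libraries entered, with the group as the only term and a minimum mean FPKM of 1. Tests are 2-sided and p-values are adjusted by Benjamini and Hochberg over all genes tested. With 3 libraries against 3 an exact permutation test cannot fall below p = 0.1, which EGFR, ERBB2, AREG, EREG, HBEGF and ERRFI1 reached. GC content is that of the longest GENCODE transcript, and its trend with length was removed from each library by loess (span 0.3). The scripts were tested on simulated data. The rest used Python 3.11.15 with matplotlib 3.10.9, numpy 2.4.6 and pandas 2.3.3. Named genes were all 10 members, PSCA and the low family genes. From each of 6 further lists up to 3 rises and 3 falls past the threshold without overlap between groups were named. Beyond this rule stand the sort marker EPCAM, markers of other cells and genes that overlap the members. Some genes called in the fit without the GC and length trend were also named, chosen after seeing it. Alternatives were another pseudocount, other minimum levels, other scalings, limma-voom on reads, removal of the GC and length trend, the replicate number as a block, no variance trend and leaving out each library.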

Additional observations from a re-analysis of the deposited data

How the results depend on the processing

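The 6 calls among the EGFR family genes kept their direction and stayed past the threshold under a pseudocount of 0.1, a minimum FPKM of 5, no minimum, median-ratio size factors, TPM, limma-voom, no variance trend and each fit that left out 1 library. EREG alone lost its call in a fit with the adjusted threshold, at -0.02 after removal of the GC and length trend and at -0.03 when NC 3 was also left out, an alternative chosen after seeing the data; the cause was not tested. LRIG1 was tested only without a minimum, and BTC was not tested at a minimum of 5. Over all genes, 7001 passed the adjusted threshold, 3434 met the rule of an unadjusted p and a log2 difference past 0.5 (which AREG, at -0.46, and EREG, at -0.38, did not meet), and between 4627 (without siPSCA 1) and 7425 (without NC 3) passed when 1 library was left out.

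On the recovered reads limma-voom called 7377 genes. With the replicate block, 6725 genes and 6 of the 9 family genes passed. The deviations of same-numbered libraries from their group means correlated at 0.10, 0.01 and 0.13. NC 1 and NC 3 correlated best with the siPSCA library of their own number, and NC 2 with siPSCA 1, at 0.04. Values this small cannot decide whether the numbers pair the libraries. Depth limits ERBB4, NRG1 and NRG3, which had 0 to 5 reads per library.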

Other observations

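Surface proteins and chaperones that work with the receptors moved in both directions. Of 16 such genes, 15 were tested, of which 3 rose, 5 fell and 7 did not pass (median log2 fold change -0.04). SDC4, a heparan sulfate proteoglycan, and MET, the receptor of hepatocyte growth factor, had the largest falls. SDC4 had an FPKM of 68.3, 72.6 and 69.0 in NC and of 43.3, 37.6 and 38.8 in siPSCA (log2 fold change -0.80, adjusted p = 0.000750 from limma). MET had 43.1, 43.9 and 50.6 in NC and 27.5, 27.7 and 27.7 in siPSCA (log2 fold change -0.71, adjusted p = 0.00114 from limma). CD44, a sort marker of these cells, fell by 0.44 on the log2 scale (adjusted p = 0.00193 from limma), and EPCAM, the other sort marker, lay at -0.16 (limma, adjusted p = 0.199).

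SDC1, a further proteoglycan, rose from 9.87, 9.73 and 6.18 in NC to 21.6, 21.1 and 20.1 in siPSCA, with NC 3 the lowest (log2 fold change 1.22, adjusted p = 0.00244 from limma). CDC37, the cochaperone that loads kinases onto HSP90, rose by 0.64 (adjusted p = 0.000798 from limma) and the tetraspanin gene CD82 by 0.46 (adjusted p = 0.0341 from limma). After removal of the GC and length trend SDC1, SDC4, MET and CD44 kept their calls, at 0.76, -0.86, -0.50 and -0.30, whereas CDC37 and CD82 did not pass, at 0.19 and 0.04. CD82 also did not pass without NC 2 or without any single siPSCA library. With the GC and length trend removed, 1 of the 15 genes was higher and 6 were lower (median log2 fold change -0.17). In that fit 39.5% of all genes were called. The 6 included MUC1 and EPHA2, at -1.05 and -0.34, which had not passed with the trend, at -0.11 and 0.13. The groups overlapped in FPKM for both genes. MUC1 had a low FPKM of 1.68, 1.44 and 1.01 in NC and of 1.30, 1.06 and 1.21 in siPSCA. Its GC content was 71.25%, and most of its -1.05 came from the removal of the trend.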
